A study of Mus musculus with 4 samples.

Results

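The genes described here repair DNA crosslinks or signal DNA damage, and they were measured in mouse testis after busulfan, an alkylating drug that crosslinks DNA and depletes dividing germ cells. They were chosen by name, as 39 listed symbols among the 44509 named genes of the deposited table, and all 39 were found there. The busulfan group held 2 testis libraries of mice made oligozoospermic with the drug, called busulfan 1 and busulfan 2, and the treated group held 2 of mice given the same injury and then Cus-1, a resin glycoside from a cuscutae extract, called treated 1 and treated 2. Both groups therefore carry the busulfan injury, and no library from an uninjured testis was analysed here. The labels give no strain, age, dose, time or batch, and do not say whether the 2 libraries of a group came from different animals, so the tests measure only the spread between these libraries. The group names rest on the source label, since the titles begin with BPA in the busulfan group and with CUS2 in the treated group, and neither prefix is explained.

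A crosslink ties both strands of DNA together and stops the replication fork. In the Fanconi anaemia pathway, a core complex of FANC proteins with the E2 enzyme UBE2T attaches ubiquitin to the FANCD2-FANCI clamp, nucleases then unhook the crosslink, translesion polymerases copy past the remnant, and homologous recombination rebuilds the broken strand. The kinases ATM and ATR signal the damage. In testis many of these proteins also serve meiosis, and mice that lack single Fanconi genes lose germ cells.

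Values are FPKM, which counts fragments relative to gene length in kilobases and to library depth in units of 1e+06 fragments, so levels can be compared between genes. Differences are log2 fold changes on log2(FPKM + 1), Cus-1 minus busulfan, a scale that understates changes of low genes. Depth was estimated only loosely from the low values, at 12.1 to 13.8 M (1e+06) fragments a library. A gene was tested with limma if 2 or more libraries held it at 1 FPKM or above, which kept 19837 genes and 38 of the 39 members. Fancb was below that filter.

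Levels spanned a wide range among the members, as the plot of levels by library shows. Wdr48 and Usp1, the subunits of the enzyme that takes ubiquitin off FANCD2, had the highest means over the 4 libraries, 121 and 107 FPKM, followed by the nuclease scaffold Slx4 at 71.0 FPKM. Mdc1, Atr and Ube2t came next at means of 58.1, 50.5 and 49.5 FPKM, neighbours whose ranges over the libraries overlapped. The lowest were Fancb at 0.395, Mgmt at 1.29, the helicase gene Brip1 at 1.51 and the nuclease gene Fan1 at 2.36 FPKM. Wdr48 lay above 95.4% of the tested genes by mean level and Mgmt above only 9.0%.

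**Figure D1:**
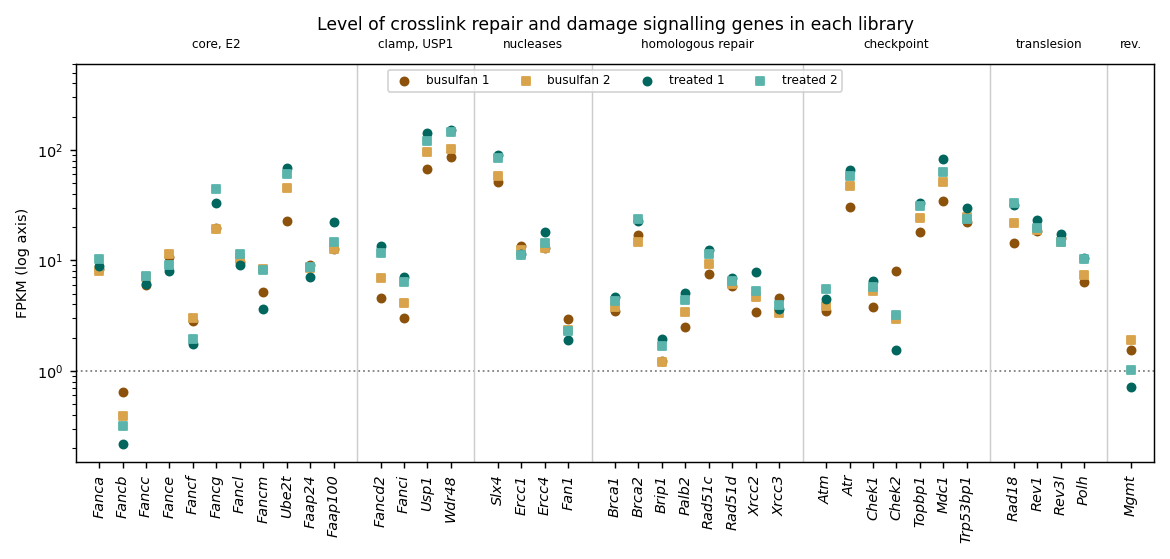
FPKM (log axis) of the 39 members in each of the 4 libraries, grouped by repair step; brown symbols are the busulfan libraries, green symbols the treated libraries, and the dotted line is 1 FPKM. Wdr48, Usp1 and Slx4 have the highest means, and Fancb lies below 1 FPKM in every library.

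Most of the tested members were higher with Cus-1, but none passed the adjusted threshold. Both treated libraries lay above both busulfan libraries for 25 of the 38 members, against 36.6% of all tested genes, and below them for 5, against 31.7%. The groups overlapped for the other 8. The same shares of all tested genes stand beside the counts of each marker list and repair step below. By limma at an unadjusted p under 0.05, 13 members were higher, against 18.0% of all tested genes, and 0 were lower, against 9.96%. After Benjamini-Hochberg adjustment over all genes 0 members passed 0.05, as did 0% of all tested genes, and the smallest limma adjusted p among the members was 0.152. The median log2 fold change of the 38 was 0.34, beside 0.04 over all tested genes. Without busulfan 1, busulfan 2, treated 1 or treated 2 in turn, 5, 11, 5 and 8 members were higher at an unadjusted p under 0.05, beside 5.84%, 16.1%, 7.25% and 19.3% of all tested genes.

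The libraries differed in germ cell and somatic RNA at the same time. In such bulk samples fewer cells of a type cannot be told apart from less RNA per cell. Nor can either be told apart from more RNA of other cells, since FPKM is relative to library depth. All 10 spermatocyte markers were higher in both treated libraries, with a summed level of 1516 and 2269 FPKM in the busulfan libraries and of 3655 and 3241 FPKM in the treated libraries. All 10 Sertoli cell markers were lower in both, with a summed level of 4894 and 3408 FPKM against 2269 and 2788 FPKM, and no marker of either list was at 0. The most abundant marker of each list was Ldhc, the lactate dehydrogenase of germ cells (log2 fold change 0.85, SE 0.26, limma adjusted p = 0.153), and Clu, a secreted Sertoli protein (-0.67, SE 0.31, limma adjusted p = 0.215). Each made up the larger part of its list's summed level in every library. Ldhc was at 905 and 1275 FPKM against 2049 and 1823 FPKM, and Clu at 3873 and 2613 FPKM against 1783 and 2235 FPKM. The summed level of 8 markers of cycling cells was 179 and 230 FPKM against 318 and 289 FPKM, and 7 of the 8 were higher in both treated libraries. Its most abundant marker, Cdk1, the kinase that drives entry into mitosis, differed less than the list's median (0.28, SE 0.135, limma adjusted p = 0.224). The median log2 fold change was 0.95 for the spermatocyte markers, 0.64 for the cycling cell markers and -0.75 for the Sertoli markers, so the members' median lay between them. Medians were 0.48 for differentiating spermatogonia, 1.03 for round and 1.22 for elongating spermatids, against -0.02 for undifferentiated spermatogonia, -0.49 for Leydig cells, -0.48 for peritubular and stromal cells, -0.48 for endothelial cells and -0.63 for macrophages. Single libraries moved several of these medians. Without busulfan 1 they were 0.61 for spermatocytes, 0.41 for cycling cells, 0.16 for differentiating spermatogonia, -0.16 for peritubular and stromal cells and -0.27 for endothelial cells. Without busulfan 2 the peritubular and stromal median was -0.79. Without treated 1 they were 0.46 for elongating and 0.67 for round spermatids, -0.23 for Leydig cells, -0.32 for peritubular and stromal cells and -0.39 for macrophages, and without treated 2 they were 1.94 for elongating spermatids and -0.78 for Leydig cells. Both spermatogonial lists were mixed. Of 8 tested differentiating markers 5 were higher and 1, Kit (-0.75, SE 0.15), lower in both treated libraries. Of 6 tested undifferentiated markers 2 were higher and 3 lower in both, with Zbtb16 the lowest (-1.08, SE 0.26). The median of the undifferentiated spermatogonia changed sign with the library left out, from -0.059 without treated 1 to 0.049 without busulfan 2. What part these shifts have in the members' values was not tested. The sign depends on the reference. Relative to the Sertoli markers the members' median was 1.09 and 16 of the 38 passed the limma adjusted threshold, as did 4295 of all 19837 tested genes. Relative to the spermatocyte markers the members' median was -0.64. Both lists themselves differ between the groups, which sets these shifts for every gene. The median of all tested genes moved likewise, to 0.79 and -0.94, so the passes are no evidence about the members.

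The order of the libraries was shared by many members. For 20 of the 38, busulfan 1 was below busulfan 2 and both treated libraries were above both, an order that 29.1% of all tested genes had. Busulfan 1 was the lowest library for 22 members, against 39.8% of all tested genes, and treated 1 the highest for 22, against 38.5%. The difference between groups was larger than the differences within both groups for 26 members, against 53.8% of all tested genes. The spermatocyte markers had the same order of libraries by their median, from -0.83 in busulfan 1 through -0.16 in busulfan 2 and 0.37 in treated 2 to 0.54 in treated 1, taken from each gene's mean on the log2 scale. That order was not particular to them. The markers of differentiating spermatogonia, round and elongating spermatids and cycling cells had it too. So did all tested genes, over a narrow range from -0.039 in busulfan 1 to 0.035 in treated 1.

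**Figure D2:**
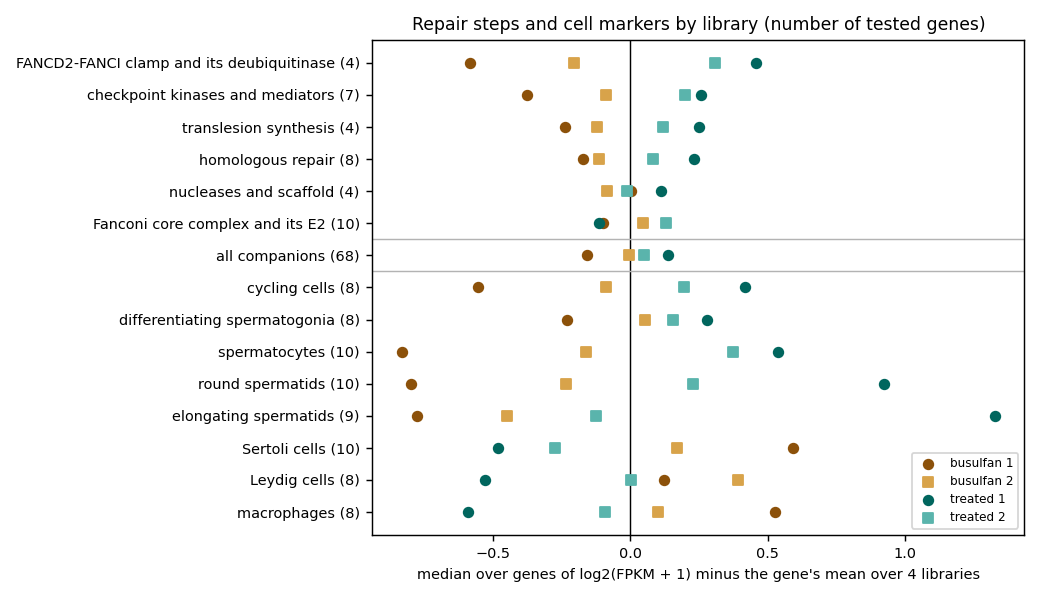
Median deviation of each gene's log2(FPKM + 1) from its mean over the 4 libraries, for the repair steps, the companion genes and lists of cell markers, with the number of tested genes in parentheses. The FANCD2-FANCI clamp step runs from -0.58 in busulfan 1 to 0.46 in treated 1, while the Fanconi core step is nearly level. The library order of the clamp step is also that of the spermatocyte, spermatid, differentiating spermatogonia and cycling cell markers.

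The promoters of 34 members were found in RefSeq (build GRCm38.p6), and the 250 bases before the most upstream start listed there were searched on both strands. No window was found for Fancd2, Usp1, Rad51d, Xrcc2 and Rev3l. The E2F motif GCGGGAA, which is bound by regulators of S-phase genes, stood in 9 of the 34 windows (26.5%), against 6.2% of the windows of 12745 tested genes. The CCAAT box was in 16 of the 34 (47.1%, against 36.6%), the MYB motif AACNGNC in 12 (35.3%, against 29.0%), and the CHR motif TTTGAA, found in cell cycle genes, in 1, that of Faap24 (2.9%, against 11.7%). The members share function with one another, so these shares are a description, and a match is not a site that was shown to be bound. For several members the start used lies inside the annotated gene. Those of Slx4 and Fancc, on the minus strand, are at 4001678 and 63431745, in genes that end at 4003770 and 63497278. Such windows may not hold the main promoter. Of the 8 tested members with an E2F match, 6 were higher in both treated libraries and 2, Chek2 and Fancm, overlapped, with a median log2 fold change of 0.59. Of the 25 without one, 15 were higher, 5 lower and 5 overlapped, with a median of 0.24. Of all tested genes 36.6% were higher and 31.7% lower in both treated libraries. The values of other genes with the motif were not compared, so no link between motif and difference was tested. The windows below, 5′ to 3′ on the gene's strand, show 3 members that were higher with Cus-1 and Chek2, whose groups overlapped although its window holds the same motif. They lie at chr1:134962315-134962564 for Ube2t, chr9:119894645-119894894 for Wdr48, chr17:35841248-35841497 for Mdc1 and chr5:110839733-110839982 for Chek2, all on the plus strand, and capitals mark matches to any of the 4 motifs (in Mdc1 the last MYB and E2F matches overlap).
Ube2t: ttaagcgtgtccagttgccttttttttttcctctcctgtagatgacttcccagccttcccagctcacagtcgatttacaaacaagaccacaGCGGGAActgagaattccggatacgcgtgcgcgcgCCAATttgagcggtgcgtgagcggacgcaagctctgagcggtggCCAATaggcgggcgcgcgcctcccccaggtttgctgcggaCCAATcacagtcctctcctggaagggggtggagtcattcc
Wdr48: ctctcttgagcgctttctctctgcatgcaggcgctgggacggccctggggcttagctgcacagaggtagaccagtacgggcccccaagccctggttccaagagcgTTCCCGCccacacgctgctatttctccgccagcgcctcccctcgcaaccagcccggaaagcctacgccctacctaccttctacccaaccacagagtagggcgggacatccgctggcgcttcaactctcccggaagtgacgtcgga
Mdc1: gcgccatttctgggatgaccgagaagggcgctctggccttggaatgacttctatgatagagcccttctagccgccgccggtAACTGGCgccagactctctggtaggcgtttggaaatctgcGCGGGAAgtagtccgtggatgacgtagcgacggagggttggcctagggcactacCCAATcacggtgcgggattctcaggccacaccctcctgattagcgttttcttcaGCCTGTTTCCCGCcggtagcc
Chek2: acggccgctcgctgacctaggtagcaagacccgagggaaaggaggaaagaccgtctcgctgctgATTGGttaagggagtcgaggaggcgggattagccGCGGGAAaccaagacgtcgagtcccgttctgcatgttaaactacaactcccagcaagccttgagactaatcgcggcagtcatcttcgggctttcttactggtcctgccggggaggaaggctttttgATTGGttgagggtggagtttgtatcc
E2F matches stood in the windows of a high gene such as Wdr48 and of low ones such as Chek2.

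The core complex and its E2 enzyme went in several directions. Fancg, a scaffold subunit on chromosome 4 (43002343 to 43010506), was at 19.6 and 19.4 FPKM in the busulfan libraries and at 32.8 and 43.8 FPKM in the treated libraries. The groups lay well apart there and the busulfan libraries nearly coincided (log2 fold change 0.92, SE 0.19, limma adjusted p = 0.152). Ube2t, on chromosome 1 (134962565 to 134974162), the E2 whose promoter is printed above, was at 22.7 and 45.5 FPKM against 68.8 and 60.9 FPKM. Busulfan 1 stood far below the rest, so the log2 fold change of 0.99 (SE 0.34, adjusted p = 0.165 by limma) was 0.50 without it and 1.47 without busulfan 2. Faap100, a subunit that holds the catalytic module together with FANCB, measured 12.7 and 12.7 FPKM under busulfan alone against 22.3 and 14.8 FPKM with Cus-1. Its log2 fold change was 0.49 (SE 0.24), 0.21 without treated 1 and 0.77 without treated 2.

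The groups of the other subunits lay close together, overlapped or were lower with Cus-1, apart from Fanca. Fancl, the E3 ligase that transfers ubiquitin, was at 9.63 and 10.6 FPKM against 9.12 and 11.4 FPKM. Fancc was as flat, at 5.97 and 7.12 FPKM against 6.17 and 7.16 FPKM, and Fanca had a log2 fold change of 0.21 (SE 0.19) from 8.36 and 7.98 FPKM to 8.96 and 10.2 FPKM, higher in both treated libraries, and 0.12 without treated 2. Fance and Fancf, which bridge the core complex to FANCD2 and to FANCM, were below in both treated libraries. Fance was at 10.6 and 11.4 FPKM against 7.99 and 9.17 FPKM (-0.33, SE 0.19), and Fancf at 2.80 and 3.03 FPKM against 1.74 and 1.96 FPKM (-0.46, SE 0.22). Fancm, the translocase that brings the complex to the lesion, varied more within the groups than between them, at 5.16 and 8.31 FPKM against 3.66 and 8.17 FPKM. Its partner Faap24 had overlapping groups too, at 8.99 and 8.50 FPKM against 7.00 and 8.62 FPKM. Fancb, the 1 member on the X chromosome, was at 0.65 and 0.39 FPKM against 0.22 and 0.32 FPKM, too low to be tested. Over the 10 tested genes of this step 4 were higher and 2 lower in both treated libraries, against 36.6% and 31.7% of all tested genes. The median log2 fold change of 0.02 changed sign with the library left out, from -0.10 without treated 2 and -0.07 without busulfan 1 to 0.11 without busulfan 2 and 0.19 without treated 1. It was also -0.04 after quantile normalization. Exons of Fanca, Fancc, Fancf and Fancl overlap those of genes on the other strand over 10.5%, 16.4%, 15.0% and 13.7% of their length at the most, and the strand setting of the counting is not given in the sources used here.

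The ubiquitinated clamp and the enzyme that resets it made up the step with the highest median, 0.73 over 4 genes, all higher in both treated libraries and all at an unadjusted limma p under 0.05. Of all tested genes, 36.6% were higher in both treated libraries and 18.0% were higher at that p. Fancd2, on chromosome 6 (113531682 to 113597017), measured 4.61 and 6.98 FPKM under busulfan alone against 13.5 and 11.8 FPKM with Cus-1. That was the largest log2 fold change among the 38 tested members, 1.02 (SE 0.25, limma adjusted p = 0.152), and it was 0.77 without busulfan 1. Fanci, its partner on chromosome 7 (79391929 to 79450264), was at 2.98 and 4.10 FPKM against 7.03 and 6.40 FPKM (0.77, SE 0.23, limma adjusted p = 0.152). The level of Fancd2 exceeded that of Fanci in every library, by a ratio of 1.55 and 1.70 in the busulfan libraries against 1.91 and 1.84 in the treated ones. Usp1, the deubiquitinase on chromosome 4 (98923810 to 98935543), was at 67.5 and 96.0 FPKM against 142 and 120 FPKM (0.69, SE 0.22, limma adjusted p = 0.157), and 0.44 without busulfan 1. Wdr48, its activating cofactor on chromosome 9 (119894878 to 119926587), whose promoter is printed above, was at 85.5 and 102 FPKM against 152 and 144 FPKM (0.66, SE 0.16, limma adjusted p = 0.152). The ratio of Usp1 to Wdr48 overlapped between the groups, at 0.79 and 0.94 against 0.93 and 0.83. The median of the step was 0.56 without busulfan 1 and 0.95 without busulfan 2, and relative to the spermatocyte markers it was -0.24. A processed pseudogene, Gm5841, is at least 95% identical to 60.9% of the Usp1 transcript, exons of Polg overlap 16.0% of those of Fanci, and exons of Gorasp1 overlap 14.9% of those of Wdr48.

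**Figure D3:**
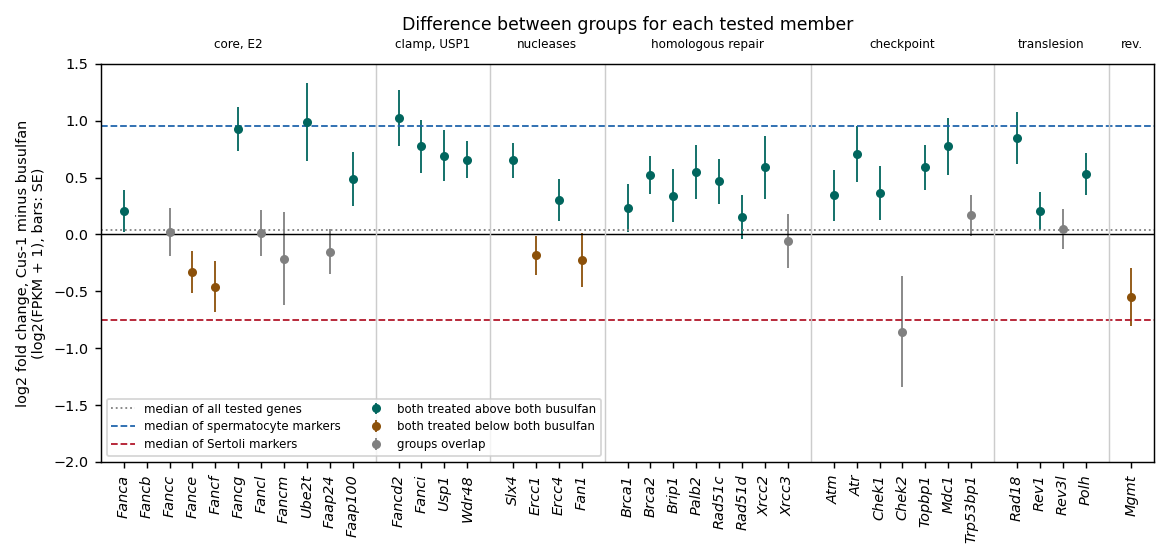
Log2 fold change (Cus-1 minus busulfan on log2(FPKM + 1), bars are the SE from limma) of the 38 tested members by repair step, coloured by whether the groups lay apart, with the medians of all tested genes, spermatocyte markers and Sertoli markers as lines. All 4 genes of the clamp step lie between 0.66 and 1.02, while the core step spans -0.46 to 0.99.

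The incision step was split. Slx4, the scaffold that gathers the nucleases, on chromosome 16 (3979105 to 4003770), measured 51.5 and 58.6 FPKM under busulfan alone against 90.3 and 83.6 FPKM with Cus-1. Neither group spread much, and the log2 fold change of 0.65 (SE 0.15, limma adjusted p = 0.152) lay between 0.56 and 0.74 whichever library was left out. The XPF-ERCC1 nuclease, its client, differed less. Ercc4, which encodes XPF, was at 13.0 and 12.8 FPKM against 18.0 and 14.5 FPKM (0.30, SE 0.19), 0.16 without treated 1. Ercc1 was at 13.5 and 12.4 FPKM against 11.5 and 11.1 FPKM (-0.18, SE 0.17). Slx4 thus stood above Ercc4 by a ratio of 3.96 and 4.57 in the busulfan libraries and of 5.02 and 5.77 in the treated libraries. Fan1, a nuclease that binds the ubiquitinated clamp, was low throughout, at 2.92 and 2.32 FPKM against 1.91 and 2.28 FPKM. The median of the 4 genes was 0.06, with 2 higher and 2 lower in both treated libraries, against 36.6% and 31.7% of all tested genes. It was 0.009 without treated 1 and 0.143 without treated 2, and 0.30 among the 3 that passed a filter of 5 FPKM.

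Of the 8 homologous repair genes, 7 were higher in both treated libraries, against 36.6% of all tested genes. Only 1 was higher at an unadjusted limma p under 0.05, against 18.0% of all tested genes, and the median log2 fold change was 0.40. That 1 gene was Brca2, a mediator of homologous recombination, on chromosome 5 (150522630 to 150570329), at 16.9 and 14.8 FPKM under busulfan alone against 22.6 and 23.7 FPKM with Cus-1 (0.52, SE 0.16, limma adjusted p = 0.154). It was the highest of the step, and unlike most members it was higher in busulfan 1 than in busulfan 2. Palb2, which links BRCA1 to BRCA2, was at 2.50 and 3.38 FPKM against 5.07 and 4.41 FPKM (0.55, SE 0.24). Brca1, on chromosome 11 (101488764 to 101551955), was lower in level and differed less, at 3.48 and 3.81 FPKM against 4.67 and 4.27 FPKM (0.24, SE 0.21). Brip1, the helicase that binds BRCA1, was at 1.22 and 1.21 FPKM against 1.93 and 1.68 FPKM (0.34, SE 0.23), where the scale understates the change.

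The proteins of Xrcc2, Rad51c, Rad51d and Xrcc3 form complexes that act in homologous recombination, and these genes differed among themselves. Xrcc2 was at 3.38 and 4.65 FPKM against 7.86 and 5.32 FPKM, a log2 fold change of 0.59 (SE 0.28) that was 0.35 without treated 1. Rad51c was at 7.53 and 9.33 FPKM against 12.5 and 11.5 FPKM (0.47, SE 0.20). Rad51d was nearly level, at 5.91 and 6.05 FPKM against 6.94 and 6.57 FPKM. Xrcc3, which pairs with RAD51C, had overlapping groups, at 4.61 and 3.37 FPKM against 3.61 and 3.91 FPKM, and its log2 fold change of -0.06 became 0.12 without busulfan 1. The median of the 8 genes ran from 0.31 without treated 1 to 0.45 without treated 2.

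Of the 7 genes of damage signalling, 5 were higher in both treated libraries, against 36.6% of all tested genes. Among those 5, 3 were at an unadjusted limma p under 0.05, against 18.0% of all tested genes. Atr, the kinase that answers stalled forks and, in pachytene spermatocytes, acts on the unpaired sex chromosomes, on chromosome 9 (95857597 to 95951781), measured 30.3 and 46.9 FPKM under busulfan alone against 66.0 and 58.6 FPKM with Cus-1. The groups lay apart although busulfan 1 was far below busulfan 2 (0.71, SE 0.24, limma adjusted p = 0.163), and the value was 0.40 without busulfan 1. Topbp1, the activator of ATR, was at 17.9 and 24.3 FPKM against 32.7 and 31.2 FPKM (0.59, SE 0.20, limma adjusted p = 0.160), 0.38 without busulfan 1. Mdc1, which spreads the signal along damaged chromatin and the sex body, on chromosome 17 (35841515 to 35859670), was at 34.5 and 51.4 FPKM against 83.0 and 63.7 FPKM (0.77, SE 0.25, limma adjusted p = 0.159), 0.49 without busulfan 1. Chek1, the kinase downstream of ATR, was lower in level by a ratio that ran from 7.94 to 10.2, at 3.82 and 5.30 FPKM against 6.47 and 5.75 FPKM (0.37, SE 0.24, with 0.17 without busulfan 1 and 0.56 without busulfan 2).

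Atm, the lead kinase of the response to double-strand breaks, was at 3.51 and 3.88 FPKM against 4.45 and 5.50 FPKM (0.34, SE 0.22, and 0.22 without treated 2). Its level was below that of Atr in every library, by a ratio from 8.64 to 14.8. Trp53bp1, which steers breaks away from resection, overlapped at 22.4 and 24.6 FPKM against 29.7 and 23.7 FPKM. Chek2, the effector kinase downstream of ATM, on chromosome 5 (110839979 to 110874145), had the lowest log2 fold change of the 38, -0.86, with the widest SE, 0.49 (limma adjusted p = 0.275). It measured 7.98 and 2.94 FPKM under busulfan alone against 1.56 and 3.21 FPKM with Cus-1, so busulfan 1 alone was high and busulfan 2 lay below treated 2. Its log2 fold change was -0.26 without busulfan 1, -1.45 without busulfan 2, -0.50 without treated 1 and -1.22 without treated 2. The median of the 7 genes was 0.37, and it was 0.29 without busulfan 1 and 0.56 without busulfan 2. Exons of Tubgcp4 overlap 15.0% of those of Trp53bp1.

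Among the translesion genes the ubiquitin ligase had the largest difference. Rad18, which marks PCNA at a stalled fork, on chromosome 6 (112619850 to 112696686), measured 14.5 and 21.6 FPKM under busulfan alone against 31.9 and 33.3 FPKM with Cus-1. Both treated libraries were close to each other and above both busulfan libraries (0.85, SE 0.23, limma adjusted p = 0.152), and the value was 0.57 without busulfan 1. Polh, the polymerase that copies past UV lesions, was at 6.40 and 7.39 FPKM against 10.5 and 10.3 FPKM (0.53, SE 0.19, limma adjusted p = 0.166). Rev1, the scaffold polymerase, was at 18.3 and 18.7 FPKM against 23.3 and 19.8 FPKM (0.21, SE 0.17, with 0.09 without treated 1 and 0.32 without treated 2). Rev3l, the catalytic subunit of polymerase zeta, a polymerase needed for crosslink tolerance, was level, at 15.8 and 14.8 FPKM against 17.3 and 14.5 FPKM. The median of the 4 was 0.37, and 3 were higher in both treated libraries, against 36.6% of all tested genes. Exons of Eif5b overlap 26.6% of those of Rev1.

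Mgmt, which removes alkyl groups from guanine, was the only gene of direct reversal among the members and went the other way. It measured 1.54 and 1.90 FPKM under busulfan alone against 0.71 and 1.01 FPKM with Cus-1, with both treated libraries below (log2 fold change -0.55, SE 0.25, limma adjusted p = 0.210). It kept that sign whichever library was left out, from -0.67 to -0.43, at a level near the filter.

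A wider list of 70 genes from the same pathways, of which 68 were tested, was less shifted. Of the 68, 30 were higher in both treated libraries, against 36.6% of all tested genes, and 12 lower, against 31.7%, with a median log2 fold change of 0.11. By limma at an unadjusted p under 0.05, 9 were higher, against 18.0% of all tested genes, and 3 lower, against 9.96%, and 0 passed after adjustment. Both counts are smaller shares of the 68 than those of all tested genes. Both counts changed with the library left out, as did those of all tested genes. The median of the wider list was 0.06 without busulfan 1, 0.21 without busulfan 2, 0.10 without treated 1 and 0.23 without treated 2. The group medians ran from 0.44 for 12 other damage tolerance genes to -0.11 for 10 genes of alkylation and excision repair, which were 0.25 and -0.03 without busulfan 1, and 0.27 and -0.07 without treated 1.

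Several partners of the members went with them, some of which were named because they had the smallest p of their group. Rpa1, the large subunit of the single-strand binding protein RPA, was at 68.9 and 81.3 FPKM against 128 and 109 FPKM (0.65, SE 0.17). Mad2l2, the partner of REV3L in polymerase zeta, was at 66.5 and 88.1 FPKM against 123 and 124 FPKM (0.68, SE 0.19), and Pold3, a subunit that the polymerase shares with polymerase delta, at 21.8 and 27.6 FPKM against 49.7 and 39.6 FPKM (0.83, SE 0.20). For polymerase zeta these accessory genes were therefore higher while Rev3l itself was level. Among the nucleases, Mre11a of the complex that detects breaks had a log2 fold change of 0.54 (SE 0.17), Nbn, of the same complex, 0.33 (SE 0.16), and Rbbp8, which starts resection, 0.55 (SE 0.22). Rad50, of the complex of Mre11a and Nbn but outside the naming rule, overlapped between the groups at 0.067 (SE 0.18). Rmi1 of the dissolvasome, which separates joined DNA molecules, was at 0.62 (SE 0.21), and 0.40 without treated 1. Cenpx, a DNA-binding partner of FANCM, was at 0.12 (SE 0.15), which was 0.038 without busulfan 1 and 0.20 without busulfan 2. Lig3, the ligase that seals excision repair gaps and works in mitochondria, was at 44.1 and 53.2 FPKM against 89.4 and 70.2 FPKM (0.70, SE 0.19).

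The rest of the genes named by the rule varied. Ube2b, the E2 enzyme that serves RAD18, was at 139 and 145 FPKM against 166 and 141 FPKM, with overlapping groups. Sem1, a small partner of BRCA2, and the gene of the histone H2AX overlapped too, the first at a log2 fold change of -0.03 (SE 0.15) and the other at 0.10 (SE 0.16), and both signs turned with a library left out, to 0.055 for Sem1 without busulfan 2 and -0.028 for the gene of H2AX without busulfan 1. Tipin, of the fork protection complex, was higher in both treated libraries at 0.43 (SE 0.21), with 0.22 without busulfan 1 and 0.27 without treated 1. Hus1b, of the checkpoint clamp, was higher in both too, at 0.64 (SE 0.25). Its level was near the filter, at 0.87 and 1.40 FPKM against 2.27 and 2.35 FPKM. Parp1, the sensor of strand breaks, was at 91.0 and 77.6 FPKM against 72.3 and 74.8 FPKM (-0.19, SE 0.15), lower in both treated libraries, and -0.08 without busulfan 1 and -0.305 without busulfan 2. The 3 that were lower at an unadjusted limma p under 0.05, named after their values were seen, were Rpa3 (-0.50, SE 0.16), Brcc3 (-0.64, SE 0.22, and -0.42 without treated 1) and Ube2a (-0.52, SE 0.18). Rpa3 encodes a subunit of RPA, as does Rpa1, which was higher.

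**Figure D4:**
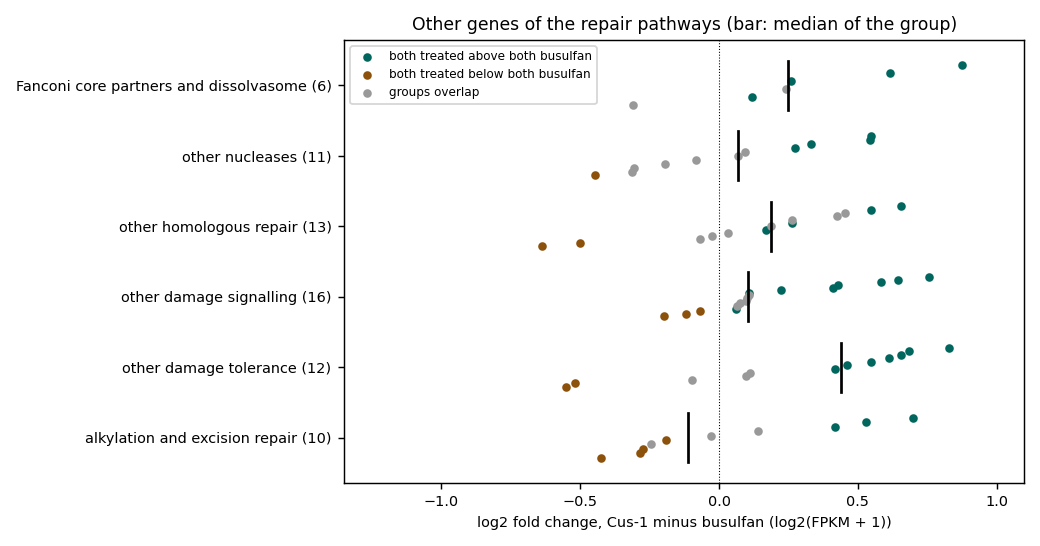
Log2 fold change (Cus-1 minus busulfan on log2(FPKM + 1)) of the 68 tested genes of the wider list by function, each point a gene, coloured by whether the groups lay apart, with a bar at the median of each group. The damage tolerance genes have a median of 0.44 and the alkylation and excision repair genes a median of -0.11.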

How the data were processed

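RNA from 4 mouse testis libraries was sequenced, 2 a group. The authors deposited 1 table of FPKM per gene and library, to 2 decimals. Per the submitters' processing notes, reads were placed on build mm10. Which aligner, counter, annotation and strand setting served is not given in the sources used here. Of 45536 rows with values, 910 carry a dash for a name (0.641% to 0.688% of summed FPKM) and were left out, as were 46 blank rows. Where a symbol repeated, the row with the highest mean was used. Groups came from the source label, and columns from the library name in the labels. Summed FPKM ran from 726041 to 742689.

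The test, for every gene that reached 1 FPKM in 2 or more libraries, was made on log2(FPKM + 1) with limma 3.58.1 (R 4.3.3, mean-variance trend, all 4 libraries, no covariates), adjusted by Benjamini-Hochberg over all 19837 genes, threshold 0.05. The fit was tested on simulated data. With 2 against 2, an exact two-sided permutation test cannot go below 0.333. The members, the 70 further pathway genes and the marker lists were chosen with earlier results of these data known. Every member is named. Of the further genes, the rule names the 2 highest in mean and the 1 with the smallest p in each group, and of the marker lists the most abundant gene, which is given for the lists whose sums are printed. Positions and exon overlaps came from the GENCODE annotation of the same build, transcripts were compared with blastn 2.17.0+ (95% identity or more), and promoters came from RefSeq. Protein sequences were not used here. FPKM multiplied by length, over genes with 1 transcript of 300 to 2000 bases, gave the depth. The highest peak within a range fixed in advance was taken as 1 fragment, so the range limits the estimate. Of the low values, 47.6% to 50.1% lay within 0.2 of a whole multiple of it, where an even spread gives 40%. Values that set the peak also entered that share, so the estimate is loose.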

Additional observations from a re-analysis of the deposited data

How the results depend on the processing

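All alternatives below were listed in the plan of the analysis. No paired analysis was possible because the labels give the groups no shared replicate numbers. Rescaling to a common sum and dropping the low-value filter kept every median and count printed for members, wider list and all genes on its side and within its spread. Relative to the Sertoli markers, 16 members passed the limma adjusted threshold and 29 were higher at an unadjusted p under 0.05, 13 and 46 of the wider list (0 lower), and 4295 and 9429 of all genes (57 lower). With that reference 0 members and 0 of the wider list lay lower in both treated libraries, and 35 members and 64 of the wider list lay higher. The reference moves every gene alike, and the share of all tested genes lying apart was not taken there. These counts are therefore no evidence about the members or the wider list. The medians were then 1.09 for all members, 0.77 core, 1.48 clamp, 0.81 nucleases, 1.15 homologous repair, 1.11 checkpoint, 1.12 translesion, 0.86 wider list and 0.79 all genes. Relative to the spermatocyte markers each reversed, to -0.64, -0.96, -0.24, -0.92, -0.57, -0.61, -0.61, -0.86 and -0.94 in that order. Both references are marker lists that themselves differ between the groups, which sets these shifts. Quantile normalization gave 2 members (Fancf and Mgmt) and 5 of the wider list lower at an unadjusted limma p under 0.05, beside 2697 of all 19837 genes. Medians were then 0.24 for members, -0.04 for the core step and -0.061 for all genes, with Fancc at -0.05 and Fancl at -0.03. Without the mean-variance trend 1 member, Mgmt, was lower at that p, beside 1828 of all 19837 genes. With a filter of 5 FPKM, which leaves 29 members, 2 of these lay lower in both treated libraries, a share not taken over all genes there. Medians were then 0.49 for members, 0.30 for nucleases and -0.006 for all genes. A pseudocount of 0.1 gave the members a median of 0.42.

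With each library left out in turn, 5 to 11 members were higher and 0 to 1 (Chek2, without busulfan 2) lower at an unadjusted p under 0.05, 0 to 13 and 0 to 2 of the wider list, and 1159 to 3821 and 426 to 1996 of all genes, with 0 to 7 past the adjusted threshold. Members lower in both treated libraries, or in the 1 left, numbered 6 to 9, and 16 to 20 in the wider list. With 1 library left in a group, any gene needs fewer comparisons for its groups to lie apart. The share of all tested genes lying apart was not taken there, so these counts are no evidence about the members or the wider list. Medians ran from 0.28 to 0.42 for members, -0.10 to 0.19 for the core step and 0.059 to 0.23 for the wider list. Signs changed for Fancc (-0.086 to 0.13), Fancl (-0.14 to 0.16), Fancm (-0.70 to 0.28), Xrcc3 (-0.24 to 0.12) and Rev3l (-0.07 to 0.17). The lone library of a group was then assumed to vary like the other group. The cause of these shifts was not tested. Among the members depth limits Fancb, Mgmt and Brip1 most, since FPKM near 1 rests on few fragments.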

Other observations

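The X-linked gene of the core complex, Fancb, and 2 further X-linked genes of the wider list, Brcc3 and Ube2a, had both treated values below both busulfan values. Brcc3, which trims ubiquitin chains at breaks, was at 13.7 and 15.2 FPKM under busulfan alone against 7.52 and 10.5 FPKM with Cus-1. Ube2a was at 18.7 and 20.9 FPKM against 12.2 and 14.9 FPKM. Its autosomal paralog Ube2b, on chromosome 11, overlapped between the groups, and the ratio of Ube2b to Ube2a was 7.43 and 6.95 with busulfan and 13.6 and 9.50 with Cus-1. Among all 651 tested X-linked genes the median log2 fold change was -0.39, and 57.0% were lower in both treated libraries, beside a median of 0.00 and 33.8% over 15807 autosomal genes. X-linked genes are silenced in pachytene spermatocytes, as background, and spermatocyte markers were higher in both treated libraries. What part that has in these values was not tested.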
